A study of Mus musculus with 4 samples.

Results

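The genes of the proteasome, the protein complex that degrades ubiquitin-tagged proteins, were followed across cultures of mouse T helper 17 (Th17) cells. Members were the rows whose gene name began with Psm, a letter from a to g and a number, with names ending in -ps left out. They numbered 48 of the 19555 rows measured, and 5 of them (Psmb8, Psmb9, Psmb10, Psme1 and Psme2), the immunoproteasome genes, were kept apart from the other 43. All 48 had a mean of at least 1 RPKM (reads normalised by exon length in kilobases and by library size), the level required for testing. Of the 43, Psme2b is a copy of Psme2, and Psmc3ip matched by name but encodes a recombination cofactor, not a proteasome protein. Psma8 and Psmb11 matched no row and were not analysed here.

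Naive CD4+ T cells of C57BL/6 mice, sorted from lymph nodes and spleen, were activated and cultured with IL-6 and TGF-β1 for 3 days, all groups alike. The groups were cells labelled Smad4 KO at 39.5 °C, cells labelled Smad4 KO at 37 °C, wild-type (WT) cells at 39.5 °C and WT cells at 37 °C, with 1 RNA-seq library each. The sources used here do not give how Smad4 was deleted, in which cells, or how many mice each culture came from. The comparisons ask how a fever-range temperature and the loss of Smad4, the shared partner of the TGF-β-activated SMAD proteins, bear on gene expression in these cells.

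Smad4 itself was at 21.3 (39.5 °C) and 20.7 RPKM (37 °C) in the libraries labelled Smad4 KO, against 14.2 (39.5 °C) and 14.0 RPKM (37 °C) in WT. The level thus goes against the label, and every genotype direction below is that of the label. Whether a part of the gene was lost cannot be read from a sum over its exons. Summed RPKM of 7 T cell genes was 1745 and 1821 with the KO label and 1359 and 1421 in WT, at 39.5 and 37 °C. For 4 Th17 genes (Il17a, Il17f, Il23r and Ccr6) the sums were 383 and 245 with the KO label and 2064 and 681 in WT, at 39.5 and 37 °C. Of other cell types, 1 of 5 B cell genes had a row, with at most 0.485 RPKM in any library. Of 6 myeloid genes 4 had a row, with summed RPKM of 8.30 and 4.05 with the KO label and 6.01 and 2.77 in WT, at 39.5 and 37 °C, nearly all of it Cd68. Of 4 CD8 and NK cell genes 1 had a row (Cd8b1, 2.86 to 4.01 RPKM), and of 3 erythroid genes 1 (Hba-a1, at most 0.401 RPKM). Recovered reads per library ranged from 18048479 to 18474773.

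Proteasomes are built from a barrel-shaped 20S core, whose beta rings hold the protein-cutting sites, and a 19S cap that recognises ubiquitin, unfolds the substrate with its ATPase ring and removes the ubiquitin chain. In lymphocytes and in cells exposed to interferon-γ, the catalytic subunits encoded by Psmb6, Psmb7 and Psmb5 are in part replaced by the inducible subunits encoded by Psmb9, Psmb10 and Psmb8. This immunoproteasome, often with the PA28 activator encoded by Psme1 and Psme2, produces peptides suited to presentation on MHC class I molecules.

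The immunoproteasome genes sit in 3 places in the genome (GRCm38). Psmb9 (ENSMUSG00000096727.3, chromosome 17, 34181987 to 34187764, minus strand) and Psmb8 (ENSMUSG00000024338.15, chromosome 17, 34197721 to 34201454, plus strand) lie in the MHC class II region on either side of the peptide transporter gene Tap1 (34187553 to 34197225, plus strand). The annotated starts of Psmb9 and Tap1 are 211 bp apart, in a head-to-head arrangement, and the Psmb9 window below spans the annotated start of Tap1. Psme1 (ENSMUSG00000022216.17, chromosome 14, 55578123 to 55581529, plus strand) and Psme2 (ENSMUSG00000079197.10, chromosome 14, 55587441 to 55591113, minus strand) are neighbours, and Psmb10 (ENSMUSG00000031897.9, chromosome 8, 105935735 to 105938444, minus strand) stands alone. The promoter windows below, 300 bases each, are from RefSeq on GRCm38.p6. They follow RefSeq starts, which differ from the annotated starts of the genes given above. The windows of Psmb9, Psmb8 and Psme1 lie wholly inside the annotated genes, downstream of those starts, and that of Psme2 spans its annotated start. Psmb9 and Psmb8 are shown because they carried the largest genotype differences of all members. Psme1 and Psme2 are shown because they were higher at 39.5 °C in both genotypes, as were Psmb9 and Psmb10. Capitals mark the CCAAT box, on the reverse strand, in the Psmb9 window (chr17:34187281-34187580, minus strand), a gamma-activated site core (TTCNNNGAA) in the Psmb8 window (chr17:34197945-34198244, plus strand) and an interferon-stimulated response element core (GAAANNGAA), on the reverse strand, in the Psme1 window (chr14:55578244-55578543, plus strand). The Psme2 window (chr14:55591052-55591351, minus strand), the first of 2 listed for that gene, has no capitals, since it holds none of the patterns searched.
Psmb9: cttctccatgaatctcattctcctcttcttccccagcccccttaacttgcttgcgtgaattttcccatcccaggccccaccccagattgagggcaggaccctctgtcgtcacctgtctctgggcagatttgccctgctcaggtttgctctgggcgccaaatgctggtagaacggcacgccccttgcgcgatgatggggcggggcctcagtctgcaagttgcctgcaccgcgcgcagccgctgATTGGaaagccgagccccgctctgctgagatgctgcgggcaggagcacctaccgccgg
Psmb8: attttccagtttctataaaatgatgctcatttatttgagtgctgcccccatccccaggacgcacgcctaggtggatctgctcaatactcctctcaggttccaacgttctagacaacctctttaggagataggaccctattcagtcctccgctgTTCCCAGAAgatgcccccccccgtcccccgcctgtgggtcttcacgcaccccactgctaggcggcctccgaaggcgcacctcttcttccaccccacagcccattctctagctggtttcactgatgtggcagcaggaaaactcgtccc
Psme1: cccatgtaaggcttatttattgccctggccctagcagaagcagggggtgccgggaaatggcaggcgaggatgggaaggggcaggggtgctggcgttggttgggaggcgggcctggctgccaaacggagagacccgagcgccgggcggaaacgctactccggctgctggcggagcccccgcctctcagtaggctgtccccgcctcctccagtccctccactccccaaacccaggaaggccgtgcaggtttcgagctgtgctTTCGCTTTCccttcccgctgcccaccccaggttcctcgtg
Psme2: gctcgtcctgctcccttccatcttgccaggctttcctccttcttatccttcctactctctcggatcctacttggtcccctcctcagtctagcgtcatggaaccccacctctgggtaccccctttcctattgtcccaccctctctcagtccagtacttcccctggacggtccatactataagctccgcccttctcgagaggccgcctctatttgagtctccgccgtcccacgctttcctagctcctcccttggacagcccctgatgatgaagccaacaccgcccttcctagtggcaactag
Both strands of each window were searched for these 3 patterns and for an antioxidant response element core (TGACNNNGC), and no matches overlapped in the windows shown. The gamma-activated site core was in the windows of 3 of 41 matched members (7.32%) and in 8.30% of all 32851 windows. The interferon-stimulated response element core was in 7 of 41 (17.1%) and in 8.56% of all windows, and 1 of the 7, Psme1, is an immunoproteasome gene. The CCAAT box was in 14 of 41 (34.1%, 37.4% of all windows) and the antioxidant response element core in 6 of 41 (14.6%, 12.4% of all windows), among them Psmb5 and Psmb6 and no immunoproteasome gene. Members were counted by gene, with a match in any window of the gene, and the shares of all windows by single window. The paired percentages are therefore in unlike units, and a gene with several windows had more chances to match. These matches describe the windows and say nothing of binding.

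Psmb9 and Psmb8, the MHC-linked inducible subunits, carried the largest differences with the KO label. Of 9 members higher in both libraries labelled Smad4 KO than in both WT libraries (29.4% of all genes tested), these 2 also passed the limma test as higher. Psmb9 was at 14.2 (39.5 °C) and 10.9 RPKM (37 °C) in the libraries labelled Smad4 KO, against 5.17 (39.5 °C) and 3.90 RPKM (37 °C) in WT. Both libraries with the KO label were above both WT libraries. The genotype ratio, KO label over WT, was 2.75 at 39.5 °C, with a 95% interval of 2.43 to 3.11, and 2.80 at 37 °C, with an interval of 2.43 to 3.25. Psmb8 was at 56.9 (39.5 °C) and 50.8 RPKM (37 °C) with the KO label, against 26.9 (39.5 °C) and 28.9 RPKM (37 °C) in WT. Its genotype ratio was 2.11 (1.98 to 2.25) at 39.5 °C and 1.76 (1.65 to 1.88) at 37 °C, again with no overlap between the labels. For 5 of the 48 members (Psma7, Psmb1, Psmb8, Psmb9 and Psmg2) the exon length behind the RPKM was not the annotated one, so that their recovered reads, and with them the width of their intervals but not the ratios, are uncertain. In a limma fit of genotype and temperature over all 4 libraries, 8.57% of all genes tested rose and 4.70% fell with the KO label. For these 2 members, the genotype log2 difference was 1.29 ± 0.12 (SE) for Psmb9 (adjusted p = 0.013) and 0.92 ± 0.13 for Psmb8 (adjusted p = 0.018). No replicate stands behind any single library: intervals of ratios cover counting error only, since amplified reads that carry no molecular identifier do not count molecules, and nothing says that the libraries came from separate animals. Without the filter on low values, limma called none of the 19555 rows for genotype. Its adjusted p-values were then 0.055 for Psmb9 and 0.056 for Psmb8. It put 15 of the members at an unadjusted p under 0.05, 4 higher and 11 lower with the KO label. The share of all rows at that threshold was not computed. The limma p-values set a difference against the departure from additivity in the same libraries. In bulk RNA, fewer cells of a type and less RNA per cell cannot be told apart. The summed levels of T cell and Th17 genes also moved with the label, and their part in the differences of Psmb8 and Psmb9 was not tested.

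Psmb10, the third inducible catalytic subunit, was also higher in both libraries with the KO label than in both WT libraries, but by little at 37 °C. It was at 47.1 (39.5 °C) and 29.2 RPKM (37 °C) with the KO label, and at 28.6 (39.5 °C) and 27.0 RPKM (37 °C) in WT. Of these 4 libraries the one at 39.5 °C with the KO label stood apart. The genotype ratio was 1.65 (1.52 to 1.79) at 39.5 °C and 1.08 (0.98 to 1.19) at 37 °C, and the ratio of 39.5 to 37 °C was 1.61 (1.48 to 1.76) with the KO label and 1.06 (0.96 to 1.16) in WT. The difference of these temperature log2 ratios, 0.59 with the KO label minus WT, was the highest of the 48 members. It has no test, with 1 library in each group. In the limma fit the genotype difference of Psmb10 had an adjusted p of 0.167.

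**Figure D1:**
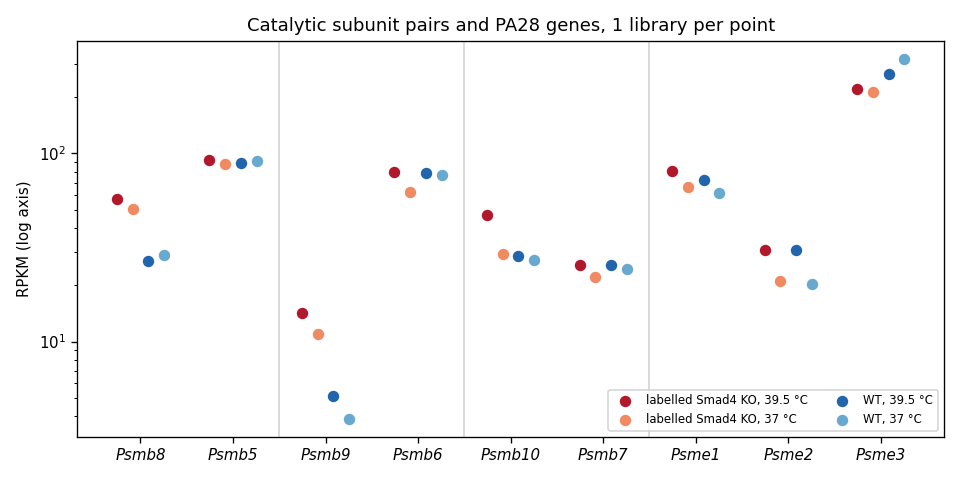
RPKM (log axis) of the inducible catalytic genes Psmb8, Psmb9 and Psmb10, each beside its standard counterpart (Psmb5, Psmb6 and Psmb7), and of the PA28 genes Psme1, Psme2 and Psme3; each point is 1 library. For Psmb9 the libraries labelled Smad4 KO sit at 14.2 and 10.9 RPKM, above WT at 5.17 and 3.90 RPKM (39.5 and 37 °C), while the 4 points of Psmb5 lie close together.

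For the standard catalytic genes the genotypes overlapped. Psmb5 was at 91.9 and 87.8 RPKM with the KO label at 39.5 and 37 °C and at 88.8 and 91.5 RPKM in WT at 39.5 and 37 °C. Psmb6 was at 79.9 and 62.4 RPKM with the KO label and 78.3 and 76.7 RPKM in WT, at 39.5 and 37 °C. Psmb7 was at 25.4 and 22.0 RPKM with the KO label and 25.4 and 24.3 RPKM in WT, at 39.5 and 37 °C. The lowest library for Psmb6 and Psmb7 was that at 37 °C with the KO label, and for Psmb6 the ratio of 39.5 to 37 °C with the KO label was 1.28 (1.21 to 1.36).

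Inducible transcripts stood higher against their standard counterparts with the KO label. On the RPKM scale, which is per exon length, Psmb8 stood at 0.619 and 0.579 of Psmb5 with the KO label at 39.5 and 37 °C, against 0.303 and 0.316 in WT at 39.5 and 37 °C. Psmb9 was the least abundant of the inducible genes, at 0.178 and 0.175 of Psmb6 with the KO label and 0.0660 and 0.0508 in WT, at 39.5 and 37 °C. Psmb10 exceeded its counterpart Psmb7 in every library, by 1.85 and 1.33 times with the KO label and 1.12 and 1.11 times in WT, at 39.5 and 37 °C. Taken over all 6 genes, inducible transcripts made up 37.5% and 34.6% of the summed RPKM with the KO label and 24.0% and 23.7% in WT, at 39.5 and 37 °C. Of the 50-base windows of Psmb5, 57.1% recur in transcripts of other genes, so that its level is uncertain, while Psmb8, Psmb9 and Psmb10 share none.

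**Figure D2:**
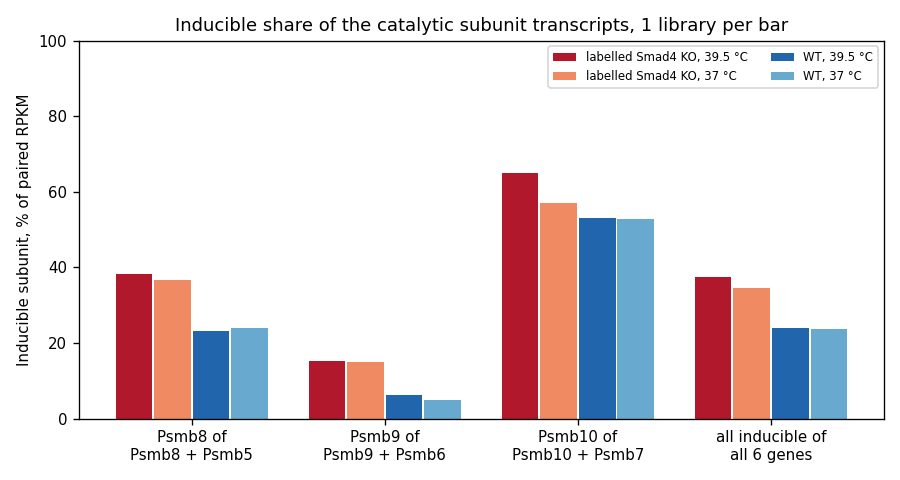
Inducible subunit as a percent of the RPKM of the inducible and standard gene together, for each of 3 catalytic pairs and for all 6 genes; each bar is 1 library. Over all 6 genes the bars are at 37.5% and 34.6% for the libraries labelled Smad4 KO and 24.0% and 23.7% for WT, at 39.5 and 37 °C.

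Most genes that work beside the immunoproteasome were higher with the KO label too. Of 8 such genes (transporter and loading genes Tap1, Tap2 and Tapbp, and regulators Irf1, Irf2, Irf8, Stat3 and Nlrc5), 5 were higher in both libraries with the KO label than in both WT libraries (29.4% of all genes tested) and none was lower in both. In the limma test for genotype 4 of the 8 rose (8.57% of all genes tested). None passed it for temperature, with 3 higher and 1 lower at an unadjusted p under 0.05 (7.17% and 6.79% of all genes tested). Limma-voom on recovered reads called 5 of the 8 higher for genotype (11.9% of all genes tested) and 1, Irf8, lower for temperature (0.926%). Tap1, the neighbour of Psmb9, was at 53.4 and 39.8 RPKM with the KO label and 28.3 and 17.4 RPKM in WT, at 39.5 and 37 °C (log2 1.02 ± 0.13, limma adjusted p = 0.016). Tap2, which encodes the partner chain of the transporter, was at 37.0 and 30.8 RPKM with the KO label and 19.4 and 18.2 RPKM in WT, at 39.5 and 37 °C (log2 0.81 ± 0.13, limma adjusted p = 0.022). Irf1, an interferon-induced transcription factor, was at 10.1 and 7.84 RPKM with the KO label and 5.65 and 3.99 RPKM in WT (limma adjusted p = 0.024), and Tapbp at 75.5 and 58.7 RPKM with the KO label and 37.2 and 41.9 RPKM in WT (adjusted p = 0.043), at 39.5 and 37 °C. Without a variance trend Tapbp no longer passed (limma adjusted p = 0.052), and without the filter on low values none of the 4 did. The class I transactivator gene Nlrc5 missed the threshold, with an adjusted p of 0.057. Of the exon bases of Psmb9, 212 (5.79%) also lie in exons of Tap1 on the opposite strand, and 498 of Psmb8 (14.7%) in those of Gm20496. The sources used here do not say whether counting used strand, so those reads cannot be told apart.

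Psme1 and Psme2, the genes of the PA28 activator, were higher at 39.5 °C in both genotypes, by ratios that did not pass the limma test for temperature. So was Psmb9, with temperature ratios of 1.30 (1.18 to 1.43) with the KO label and 1.32 (1.13 to 1.56) in WT. Psme2, which encodes the beta subunit of PA28, was at 30.7 (39.5 °C) and 21.0 RPKM (37 °C) in the libraries labelled Smad4 KO, and at 30.6 (39.5 °C) and 20.3 RPKM (37 °C) in WT. Both libraries at 39.5 °C were above both at 37 °C, and the genotype ratio was 1.0 (0.918 to 1.09) at 39.5 °C and 1.03 (0.925 to 1.15) at 37 °C. The ratio of 39.5 to 37 °C was 1.46 (1.32 to 1.62) with the KO label and 1.51 (1.36 to 1.66) in WT. Psme1, for the alpha subunit, was at 80.5 and 66.2 RPKM with the KO label and 72.5 and 61.7 RPKM in WT, at 39.5 and 37 °C, with temperature ratios of 1.22 (1.15 to 1.28) with the KO label and 1.18 (1.11 to 1.24) in WT. Psme2b (ENSMUSG00000078153.3, chromosome 11, 48945354 to 48946190), a single-exon copy of Psme2, was at 136 and 99.0 RPKM with the KO label and 150 and 95.2 RPKM in WT, at 39.5 and 37 °C.

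Psme2 and Psme2b share much of their sequence: 59.3% of the 50-base windows of Psme2 recur in other transcripts, those of Psme2b first among them. Reads could therefore be assigned to either row. Summed over both rows, reads gave a ratio of 39.5 to 37 °C of 1.40 (1.32 to 1.48) with the KO label and 1.55 (1.47 to 1.64) in WT. Neither passed the limma test for temperature (Psme2 log2 0.55 ± 0.12, adjusted p = 0.160, and Psme2b log2 0.55 ± 0.12, adjusted p = 0.156), nor did Psme1 (log2 0.25 ± 0.12, adjusted p = 0.412). Psme3, which encodes the nuclear activator PA28 gamma and was the most abundant member at a mean of 254 RPKM, was at 221 and 212 RPKM with the KO label and 264 and 319 RPKM in WT, at 39.5 and 37 °C. It was lower in both libraries with the KO label, but missed the limma threshold (log2 -0.42 ± 0.13, adjusted p = 0.081).

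Among the remaining members, most genes of the 19S cap were lower with the KO label. Of its 17 genes, 12 were lower in both libraries labelled Smad4 KO than in both WT libraries and 1 was higher, where 30.1% of all genes tested were lower and 29.4% higher. The median genotype log2 ratio of the 17 was -0.23 at 39.5 °C and -0.33 at 37 °C, where the medians of all genes tested were 0.00 and -0.01. A size rule of 25% was used for single pairs of libraries, a ratio at least 25% above 1 or, for lower values, of at most 0.8, taken on RPKM + 1. By it 4 of the 17 were lower at 39.5 °C (19.9% of all genes tested) and 9 of the 17 at 37 °C (21.5%), and none was higher at either temperature (21.1% of all genes tested at 39.5 °C and 23.1% at 37 °C). None of the 17 passed the limma test for genotype. At an unadjusted p under 0.05 limma put 7 lower, where all genes tested gave 15.6% lower. Limma-voom called 3 of the 17 lower after adjustment (Psmd1, Psmd6 and Psmd11), where it called 9.39% of all genes tested lower. With a minimum mean of 5 RPKM limma called the same 3 (24.9% of all genes tested in either direction). Without the filter on low values it called none.

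In the lid, which removes ubiquitin chains, 5 of 8 genes were lower in both libraries with the KO label (30.1% of all genes tested). Psmd6 was at 16.7 and 16.6 RPKM with the KO label and 23.4 and 23.4 RPKM in WT, at 39.5 and 37 °C, a ratio of 0.712 (0.653 to 0.778) at 39.5 °C and 0.710 (0.649 to 0.776) at 37 °C (limma adjusted p = 0.061). Psmd11 was at 19.3 and 18.3 RPKM with the KO label and 24.7 and 26.8 RPKM in WT, and Psmd7 at 92.3 and 81.4 RPKM with the KO label and 111 and 120.1 RPKM in WT, at 39.5 and 37 °C. Psmd14, the lid's deubiquitinating enzyme, was at 17.7 and 17.2 RPKM with the KO label and 22.1 and 22.0 RPKM in WT, and Psmd12 at 26.7 and 27.5 RPKM with the KO label and 32.8 and 36.7 RPKM in WT, at 39.5 and 37 °C. The other 3 lid genes did not share the direction: Psmd13 was higher with the KO label in both pairs, by ratios of 1.05 (0.986 to 1.12) at 39.5 °C and 1.09 (1.02 to 1.17) at 37 °C, Psmd8 had ratios of 1.01 and 1.03, and Psmd3 ratios of 1.03 and 0.813, at 39.5 and 37 °C.

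In the base, 5 of the 6 ATPase genes and 2 of the 3 others were lower in both libraries with the KO label. By this measure 30.1% of all genes tested were lower. Psmc6, the least abundant ATPase gene, was at 6.63 and 6.08 RPKM with the KO label and 9.64 and 7.71 RPKM in WT, at 39.5 and 37 °C. Psmd1, which encodes a scaffold subunit of the base, was at 15.8 and 13.5 RPKM with the KO label and 20.8 and 19.2 RPKM in WT, at 39.5 and 37 °C (limma adjusted p = 0.077). Psmd2, the companion scaffold subunit, had genotype ratios of 0.850 (0.819 to 0.883) at 39.5 °C and 0.830 (0.798 to 0.862) at 37 °C. The exceptions were Psmc3, with ratios of 1.02 (0.971 to 1.07) and 0.968 (0.922 to 1.02), and the ubiquitin receptor gene Psmd4, with ratios of 1.05 (0.995 to 1.11) and 1.05 (0.993 to 1.11), at 39.5 and 37 °C. The 6 ATPase genes were all higher at 39.5 °C in the libraries labelled Smad4 KO, with a median log2 ratio of 0.12 (48.7% of all genes tested were higher), and 2 of 6 were in WT (46.5%), none of them by 25% on RPKM + 1, although the ratio of RPKM itself reached 25% for Psmc6 in WT.

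**Figure D3:**
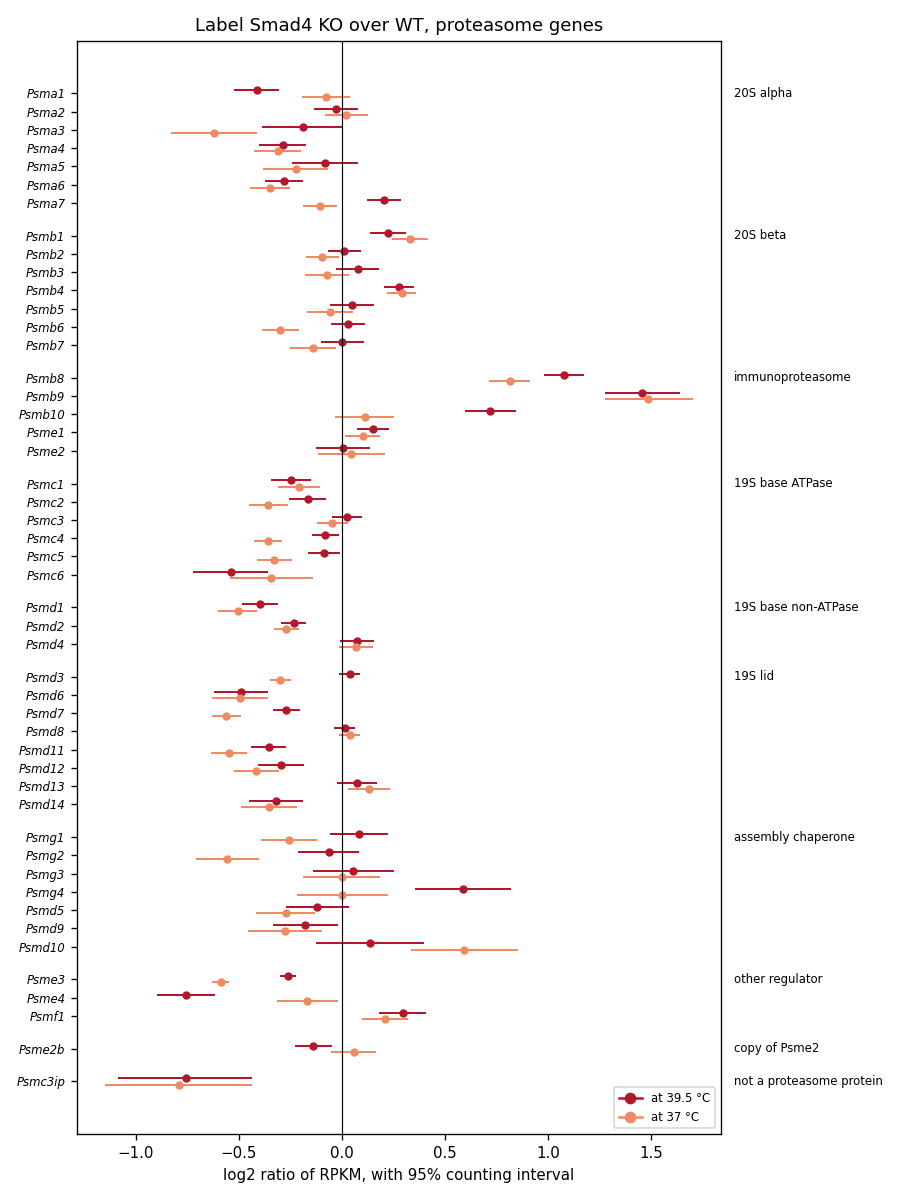
Log2 ratio of RPKM, library labelled Smad4 KO over WT, for each of the 48 members by role, at 39.5 °C (dark) and 37 °C (light), with 95% counting intervals. Psmb9 and Psmb8 lie farthest right, and the 19S genes lie mostly left of 0, with medians of -0.23 at 39.5 °C and -0.33 at 37 °C on the log2(RPKM + 1) scale.

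In the 20S core, 4 of 14 genes were lower in both libraries with the KO label than in both WT libraries and 2 were higher. Of all genes tested, 30.1% were lower and 29.4% higher by this measure. Of the 7 alpha ring genes, which encode the outer rings that gate the barrel, 4 (Psma1, Psma3, Psma4 and Psma6) were lower in both libraries with the KO label, with a median genotype log2 ratio of the 7 of -0.16 at 39.5 °C and -0.22 at 37 °C. Psma6 was at 81.6 and 78.9 RPKM with the KO label and 99.2 and 101 RPKM in WT, at 39.5 and 37 °C (limma unadjusted p = 0.038, adjusted p = 0.122). Psma1 was at 23.4 and 24.1 RPKM with the KO label and 31.2 and 25.4 RPKM in WT, at 39.5 and 37 °C, so that the WT library at 39.5 °C alone stood high. Of the 7 standard beta ring genes none was lower in both libraries with the KO label. Psmb1 was higher, at 130.0 and 144 RPKM with the KO label and 111 and 114 RPKM in WT, and so was Psmb4, at 111 and 115 RPKM with the KO label and 91.2 and 94.4 RPKM in WT, at 39.5 and 37 °C. Their limma adjusted p-values were 0.154 and 0.145. The beta ring median at 39.5 °C was 0.05, but turned to -0.02 when libraries were rescaled to the same upper quartile. Sequence shared with processed copies was 54.5% of windows for Psma5 and 55.8% for Psmb3, and at most 25.6% for the other core genes outside Psmb5.

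Among the 7 genes for assembly chaperones, which build the alpha ring (Psmg1 to Psmg4) or the base (Psmd5, Psmd9 and Psmd10) and leave the finished particle, the median temperature log2 ratio was -0.01 with the KO label and -0.21 in WT. Psmg4 was at 38.3 and 35.6 RPKM with the KO label at 39.5 and 37 °C, and at 25.5 and 35.6 RPKM in WT at 39.5 and 37 °C. The WT library at 39.5 °C was the low one, and the WT ratio of 39.5 to 37 °C was 0.715 (0.609 to 0.840). Psmg1 was at 36.8 and 37.0 RPKM with the KO label and 34.7 and 44.2 RPKM in WT, and Psmg2 at 39.9 and 32.9 RPKM with the KO label and 41.7 and 48.4 RPKM in WT, at 39.5 and 37 °C. Psmg3 was lower at 39.5 °C in both genotypes, at 8.52 against 9.60 RPKM with the KO label and 8.20 against 9.60 RPKM in WT. Psmd10, also known as the oncoprotein gankyrin, was at 9.54 (39.5 °C) and 12.3 RPKM (37 °C) with the KO label and at 8.67 (39.5 °C) and 8.18 RPKM (37 °C) in WT, with the library of the KO label at 37 °C the high one. Psmd5 was also lower at 39.5 °C in both genotypes, at 5.42 against 5.96 RPKM with the KO label and 5.88 against 7.20 RPKM in WT. Psmd9 ran the other way, at 4.77 (39.5 °C) against 3.80 RPKM (37 °C) with the KO label and 5.39 against 4.60 RPKM in WT, with counting intervals of both ratios above 1.

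Of the remaining regulators, Psme4, which encodes the activator PA200, was at 4.35 and 5.13 RPKM with the KO label and 7.36 and 5.76 RPKM in WT, at 39.5 and 37 °C. Its genotype ratio was 0.592 (0.538 to 0.651) at 39.5 °C and 0.891 (0.807 to 0.983) at 37 °C, and it had the lowest difference of temperature log2 ratios, -0.50 with the KO label minus WT. Psmf1, for the proteasome inhibitor PI31, was at 12.6 and 12.8 RPKM with the KO label and 10.3 and 11.1 RPKM in WT, at 39.5 and 37 °C. Psmc3ip was the third member to pass the limma test for genotype and fell with the KO label, at 3.85 and 3.34 RPKM against 6.52 and 5.77 RPKM in WT, at 39.5 and 37 °C (log2 -0.64 ± 0.13, adjusted p = 0.036, and 0.097 without the filter on low values). It rests on 107 to 229 reads a library, and 385 of its exon bases (21.2%) overlap exons of Mlx on the opposite strand.

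None of the 48 members passed the limma test for temperature, which called 0.0146% of all genes tested higher and 0.00729% lower, and limma-voom on the recovered reads also called 0 members (2.57% of all genes tested in either direction). At an unadjusted p under 0.05, limma gave 3 members higher at 39.5 °C (Psme2, Psme2b and Psmb9) and 0 lower, where all genes tested gave 7.17% higher and 6.79% lower. In the libraries labelled Smad4 KO, 5 members were at least 25% higher at 39.5 °C (10.9% of all genes tested) and 1, Psmd10, was lower by that rule (12.8%). In WT, 3 were higher (13.5%) and 2, Psmg4 and Psmg1, lower (12.5%). The 5 were Psmb9, Psmb10, Psme2, Psme2b and Psmb6, and the 3 in WT were Psme2, Psme2b and Psmb9. Both libraries at 39.5 °C were above both at 37 °C for 7 members (13.1% of all genes tested) and below for 6 (12.9%). The ratio was above 1 in both genotypes for 14 members (27.9% of all genes tested) and below 1 in both for 11 (32.7%). A 2-fold difference between temperatures occurred in no member in either genotype (with the KO label 0.751% of all genes tested were higher and 0.911% lower, and in WT 1.46% higher and 0.525% lower).

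**Figure D4:**
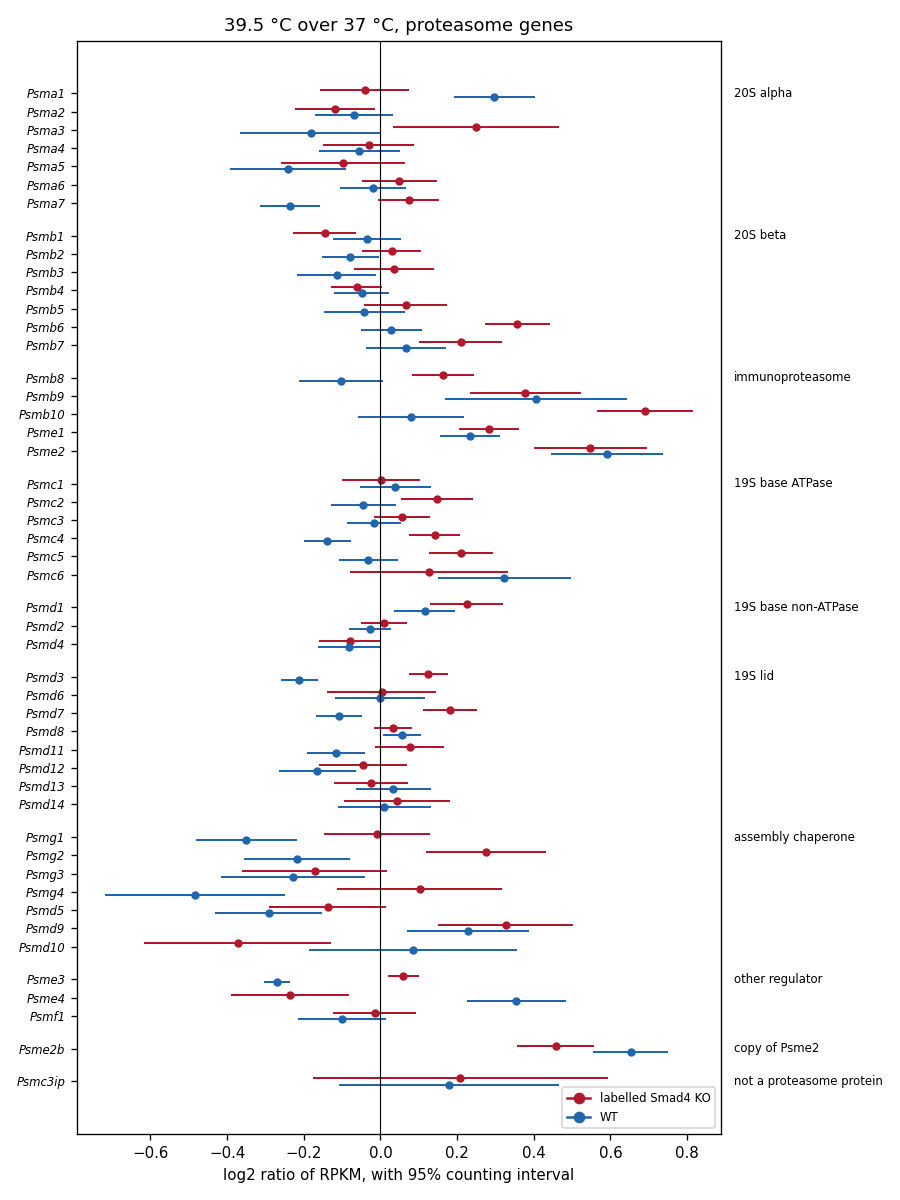
Log2 ratio of RPKM, 39.5 over 37 °C, for each of the 48 members by role, in the libraries labelled Smad4 KO (red) and in WT (blue), with 95% counting intervals. Psme2 and Psme2b lie right of 0 in both genotypes, and Psmb10 does so with the KO label (ratio 1.61) more than in WT (1.06).

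For genotype, the counts over all 48 members ran in both directions. At least 25% higher with the KO label at 39.5 °C were 4 members (Psmb8, Psmb9, Psmb10 and Psmg4), where 21.1% of all genes tested were. At 37 °C they were 4 as well (Psmb8, Psmb9, Psmb1 and Psmd10), where 23.1% were. Lower by the same rule were 7 at 39.5 °C (19.9% of all genes tested) and 14 at 37 °C (21.5%). A 2-fold difference was reached by Psmb9 and Psmb8 at 39.5 °C (2.30% of all genes tested were as much higher) and by Psmb9 at 37 °C (4.70%), and no member was 2-fold lower (1.05% of all genes tested at 39.5 °C and 1.14% at 37 °C). The 5 immunoproteasome genes had a median genotype log2 ratio of 0.70 at 39.5 °C and 0.11 at 37 °C, and the other 43 of -0.08 at 39.5 °C and -0.22 at 37 °C. Summed over all 48, RPKM was 2507 and 2343 with the KO label and 2548 and 2617 in WT, at 39.5 and 37 °C, of which the immunoproteasome genes made up 229 and 178 with the KO label and 164 and 142 in WT.

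Of the traits of gene structure looked at, the number of exons moved most with these ratios. The 19S genes have 7 to 25 exons in the annotated transcripts and the 20S genes 3 to 11. Over 47 members without Psmc3ip, the number of exons and the genotype log2 ratio had a Spearman correlation of -0.55 at 39.5 °C and -0.44 at 37 °C (Pearson -0.45 and -0.25). For transcript length the Spearman correlation was -0.37 at 39.5 °C and -0.22 at 37 °C, and for mean exon length 0.19 at both. These genes share their libraries and depth, and no p-value is given. Genes tested that had a single annotation were also split into quintiles of transcript length, not of exon number. The longest had a median genotype log2 ratio of -0.12 at 39.5 °C and -0.10 at 37 °C. The shortest had 0.07 at 39.5 °C and 0.03 at 37 °C. By level, the quintile of highest mean RPKM had a median of 0.11 at 39.5 °C and -0.003 at 37 °C, and that of the lowest -0.10 and -0.02. The mean RPKM of the 17 genes of the 19S cap had a median of 51.7. The part of exon number, length and level in the lower 19S values was not tested.

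Beyond the subunits, 26 genes for proteasome partners, ubiquitin and the NRF1 pathway, which raises subunit transcription when proteasome activity falls short, had a row. In the limma test for genotype 1 rose (Uba1, which encodes the ubiquitin-activating enzyme), where 8.57% of all genes tested rose, and 1 fell (Uchl5), where 4.70% fell. For temperature none passed, with 1 lower at an unadjusted p under 0.05 (6.79% of all genes tested) and 0 called by limma-voom (2.57%). Without a variance trend Uba1 no longer passed (limma adjusted p = 0.074), and without the filter on low values neither did. Uchl5, a deubiquitinating enzyme bound to the cap, was at 7.57 and 6.73 RPKM with the KO label and 12.7 and 12.4 RPKM in WT, at 39.5 and 37 °C (log2 -0.73 ± 0.13, limma adjusted p = 0.026). Usp14, the other cap-bound deubiquitinating enzyme, was at 8.31 and 7.80 RPKM with the KO label and 11.5 and 10.7 RPKM in WT, at 39.5 and 37 °C (limma adjusted p = 0.079). Nfe2l1, the gene of NRF1, was at 24.9 and 23.1 RPKM with the KO label and 30.9 and 29.0 RPKM in WT (limma adjusted p = 0.139), at 39.5 and 37 °C. Pomp, the chaperone of beta ring assembly, was at 18.0 and 17.2 RPKM with the KO label and 19.1 and 17.9 RPKM in WT, at 39.5 and 37 °C. Of the 26 genes, 13 were lower and 5 higher in both libraries with the KO label than in both WT libraries, where 30.1% of all genes tested were lower and 29.4% higher.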

How the data were processed

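RNA was measured in 4 libraries of cultured mouse Th17 cells, 1 for each combination of genotype label and temperature. Per the labels' protocols, RNA was isolated with Trizol and a NEXTflex kit was used for the libraries. The submitters' processing notes name the mm10 build and the tools featureCounts, Subread, Bowtie2, edgeR and Trim Galore 0.4.4, with neither order nor settings. The sources used here do not give the annotation release. The authors deposited RPKM values for 19555 rows in each library. Reads that cross exon junctions are lost where alignment to the genome is unspliced, which lowers genes of many short exons.

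Whole reads were recovered from the RPKM steps. Of 13143 rows matched to GENCODE vM21 genes, 12053 (91.7%) were whole at the annotated exon length within 0.01 reads. Other rows were given a length of their own within 0.003 reads, and 19553 of all 19555 rows were recovered in either way. RPKM steps gave library sizes of 18410930 and 17639131 with the KO label and 19308700 and 18216612 in WT, at 39.5 and 37 °C, or 0.997, 0.955, 1.06 and 1.01 of the recovered reads. Members' rows held 107 to 17126 reads a library.

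Log2 ratios and list medians are on the log2(RPKM + 1) scale, which understates differences of low genes, and cover 13715 rows whose mean reached 1 RPKM. Ratios of RPKM carry exact 95% intervals (Clopper-Pearson, given the reads of both libraries). The shared effects were fitted with limma 3.58.1 in R 4.3.3 (genotype and temperature as additive terms, variance trend, 1 residual degree of freedom, median prior degrees of freedom 4.475), with Benjamini-Hochberg adjustment over all rows tested and a threshold of 0.05. As the values were RPKM, the count test foreseen for counts was not run, and limma-voom on recovered reads served as an alternative. Fits and read recovery were tested on simulated data. Values in all libraries are given for the immunoproteasome and standard catalytic genes, the 3 highest and lowest members of each comparison and of the difference in temperature response, and members past a limma threshold. Others are named as examples of their role, chosen after their values were seen. Members and lists were chosen with earlier results of these data known. Shared sequence was counted as 50-base windows found in another gene's annotated transcripts. Alternatives changed the pseudocount, the filter, the scaling, the variance trend and the input of the fit. Motifs were searched in RefSeq promoter windows of 300 bases around each start. Of the names listed for the pathway, Paaf1 and Ecpas matched no row and were not analysed here, and some genes of the marker and pathway lists are not reported here.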

Additional observations from a re-analysis of the deposited data

Results flagged for a closer look

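The temperature response pointed in opposite directions in the 2 genotypes, with a 95% counting interval on each side of 1, for 7 members. The share of all genes tested that met this rule was not computed, and more reads make it easier to meet. Genes tested that had a single annotation were split into quintiles of mean RPKM. The highest quintile had a median temperature log2 ratio of 0.01 with the KO label and -0.11 in WT. With 1 library in each group the difference between genotypes was not tested, nor was the part of level in it. The temperature log2 ratio with the KO label minus that in WT was 0.37 for Psma3, whose ratio of 39.5 to 37 °C was 1.19 with the KO label and 0.882 in WT. It was 0.28 for the ATPase gene Psmc4, with ratios of 1.10 with the KO label and 0.908 in WT. It was 0.33 for the lid gene Psmd3, with ratios of 1.09 with the KO label and 0.863 in WT, and 0.29 for the lid gene Psmd7, with ratios of 1.13 with the KO label and 0.927 in WT. It was 0.48 for the alpha ring chaperone gene Psmg2, with ratios of 1.21 with the KO label and 0.861 in WT. It was 0.33 for Psme3, with ratios of 1.04 with the KO label and 0.830 in WT. Psme4 ran the other way, at -0.50, with ratios of 0.849 with the KO label and 1.28 in WT.

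Rows named as proteasome pseudogenes, which the comparisons did not use, also carried reads. Psmb6-ps2 had a mean of 77.1 RPKM over the 4 libraries, at 87.8 and 68.4 RPKM with the KO label and 78.2 and 73.8 RPKM in WT, at 39.5 and 37 °C. Psmb5-ps had a mean of 0.543 RPKM, Psmb6-ps of 2.30 RPKM and Psmb7-ps2 of 2.05 RPKM.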

How the results depend on the processing

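Of 230 values recomputed under the alternatives, 218 were rated the same. Counts were so rated within 1.5 times, and limma results at the same direction and side of the threshold. Log2 ratios, medians and catalytic ratios were so rated if they moved by no more than counting error. Small ones could thus change sign: the genotype log2 ratio of Psme2 at 39.5 °C went from 0.0034 to -0.062 with libraries rescaled to the same upper quartile. The filter settings could not change log2 ratios of single genes or the immunoproteasome medians. Removing the filter could not change the counts of members by size of ratio either, since every member already passed it. These values are among the 218. No direction of a called gene reversed. The number of members past the limma threshold for genotype was 3, and was 0 with no filter on low values. Without that filter limma put 15 at an unadjusted p under 0.05, 4 higher and 11 lower with the KO label. The share of all rows was not computed. The number called was 6 with a minimum mean of 5 RPKM (24.9% of all genes tested) and 6 with limma-voom on recovered reads (21.2%). It was 4 with libraries rescaled to the same upper quartile (1852 of 13715 genes tested). Without the filter all 19555 rows were tested, and the adjusted p was 0.055 for Psmb9, 0.056 for Psmb8 and 0.097 for Psmc3ip, at log2 differences of 1.29, 0.92 and -0.64. Over all fits the adjusted p ranged from 0.00051 to 0.055 for Psmb9, from 0.0020 to 0.056 for Psmb8 and from 0.061 to 0.32 for the temperature difference of Psme2. The added calls with a minimum of 5 RPKM were Psmd1, Psmd6, Psmd11 and Psme3, all lower with the KO label. Psmc3ip, at a mean of 4.87 RPKM, was not tested there. With limma-voom the added calls were Psmd1, Psmd6 and Psmd11, and with the upper quartile rescaling Psmd6. With libraries rescaled to the same upper quartile, members at least 25% apart by genotype at 39.5 °C numbered 17 and not 11, of which 13 and not 7 lower with the KO label, the immunoproteasome median there was 0.64 and not 0.70, and in WT 6 and not 3 members were at least 25% higher and 1 and not 2 lower at 39.5 °C. This rescaling divides all values of a library by the same factor, so the ratios of all genes move together. The median genotype log2 ratio of all genes tested at 39.5 °C went from 0.003 to -0.055. Their median temperature log2 ratio in WT went from -0.02 to 0.02. The shares of all genes tested past 25% were not computed under this rescaling. That rescaling also turned the signs of small medians, below 0.06 in size, for temperature in WT (the 19S particle, its base, the beta ring and the 43 members together) and for genotype at 39.5 °C (the beta ring, the core and the chaperones). The ratio of inducible to standard catalytic transcripts, with the KO label over WT, was 1.70 at 37 °C and 1.81 from sums over both libraries of a label. No paired analysis was possible because each group had 1 library and the labels carry no replicate numbers. Leaving out a library would leave the additive fit no residual degree of freedom. At these depths members with few reads have wide intervals: the genotype ratio of Psmc3ip at 37 °C was 0.579 (0.452 to 0.737).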

Other observations

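Of the ubiquitin genes, Ubb was at 853 and 801 RPKM with the KO label and 653 and 697 RPKM in WT, at 39.5 and 37 °C. Both libraries with the KO label were thus above both WT libraries, and the limma adjusted p for genotype was 0.112. For Rps27a, which encodes ubiquitin fused to a ribosomal protein, the genotypes overlapped, at 42.3 and 51.2 RPKM with the KO label and 41.2 and 43.3 RPKM in WT, at 39.5 and 37 °C. Uba1, the ubiquitin-activating enzyme gene, was at 359 and 483 RPKM with the KO label and 257 and 358 RPKM in WT, at 39.5 and 37 °C, with a genotype log2 difference of 0.46 ± 0.10 (limma adjusted p = 0.045). It was also lower at 39.5 °C in both genotypes, by ratios of 0.742 (0.731 to 0.753) with the KO label and 0.719 (0.707 to 0.732) in WT, and its limma adjusted p for temperature was 0.166.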
